A study of Homo sapiens with 27 samples.

Results

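Cells given oncostatin M (OSM) alone were compared directly with cells given epidermal growth factor (EGF) alone, a comparison of 6 of the series' 27 RNA-seq libraries, 3 for each ligand, chosen by their treatment labels. The cells were MCF10A, an immortal line from human breast epithelium that does not form tumours. It had been kept in DMEM/F12 with 5% horse serum, 20 ng/ml EGF, hydrocortisone, cholera toxin and insulin, so every group had met EGF before the experiment. Cells were seeded on collagen-1, washed 6 h later, held for 18 h without growth factors and then given 1 ligand at 10 ng/ml in fresh factor-free medium, or phosphate-buffered saline (PBS) in the control. RNA of the groups described here was taken 24 h after the ligand. The other groups drawn on below were PBS, EGF+OSM, EGF+TGFB and OSM+TGFB, where TGFB is transforming growth factor beta at 10 ng/ml. All are 3 libraries of 1 cell line and the labels do not say whether they came from separate cultures, so the p-values measure the spread between these libraries, which may be technical.

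EGF binds EGFR, a receptor tyrosine kinase that signals through RAS, ERK and PI3-kinase, and is the mitogen this line is usually grown in. OSM belongs to the cytokines named after interleukin-6 and binds a pair of receptor chains, OSMR (or LIFR) and gp130, the product of IL6ST. These activate JAK kinases and STAT3, with a smaller input to ERK, and SOCS3 is the feedback inhibitor that STAT3 induces. OSM is best known for the acute-phase response of liver cells and for changes of growth and shape in epithelium. The direct comparison asks in what respects the 2 states differ, given that both ligands raised the genes of cell division over PBS.

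Total counts were 38090001 to 46857559 in the EGF libraries and 35234764 to 46645332 in the OSM libraries. Values are given in CPM, counts scaled to the TMM-adjusted total of their library, which is a level for each gene but not per unit of length, so levels are compared between samples only. The first principal component of the 6 libraries held 68.6% of the variance and separated the ligands, with EGF between -61.0 and -55.0 and OSM between 46.2 and 64.5. OSM replicate 3 stood apart from the other OSM libraries, at 46.2 on the first component against 60.6 and 64.5, and at 41.4 against -18.6 and -16.3 on the second, which held 9.79%. The counts below that it moved most are given with and without it. Mitochondrially encoded transcripts took 1.83% ± 0.130 of counts with OSM and 1.76% ± 0.290 with EGF (SD, n = 3; exact two-sided permutation test, p = 0.8, where 0.1 is the smallest these libraries allow).

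Most of the measured transcriptome differed between the ligands. Of 16611 rows tested (1 row per Ensembl gene), 9040 or 54.4% were called, meaning that edgeR's quasi-likelihood test gave them a p under 0.05 after Benjamini-Hochberg adjustment. They comprised 4450 rows higher with OSM (26.8%) and 4590 lower (27.6%), around a median log2 fold change of -0.00 over all rows. A direct count gave a like number: in 9831 rows (59.2%) the 3 libraries of one ligand all lay above the 3 of the other. Of the 14872 symbols tested, from which the gene lists below draw, 57.7% were called, 4180 higher and 4398 lower. The differences were larger on the OSM side. At 2-fold or more, 1356 rows were higher (8.16%) and 771 lower (4.64%), 2127 in all (12.8%). Without OSM replicate 3, 9236 rows were called, 3955 higher and 5281 lower. A lean to lower calls was not particular to that library. Without OSM replicate 1 the counts were 3609 higher and 4814 lower, and without OSM replicate 2 they were 3473 and 4824.

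**Figure D1:**
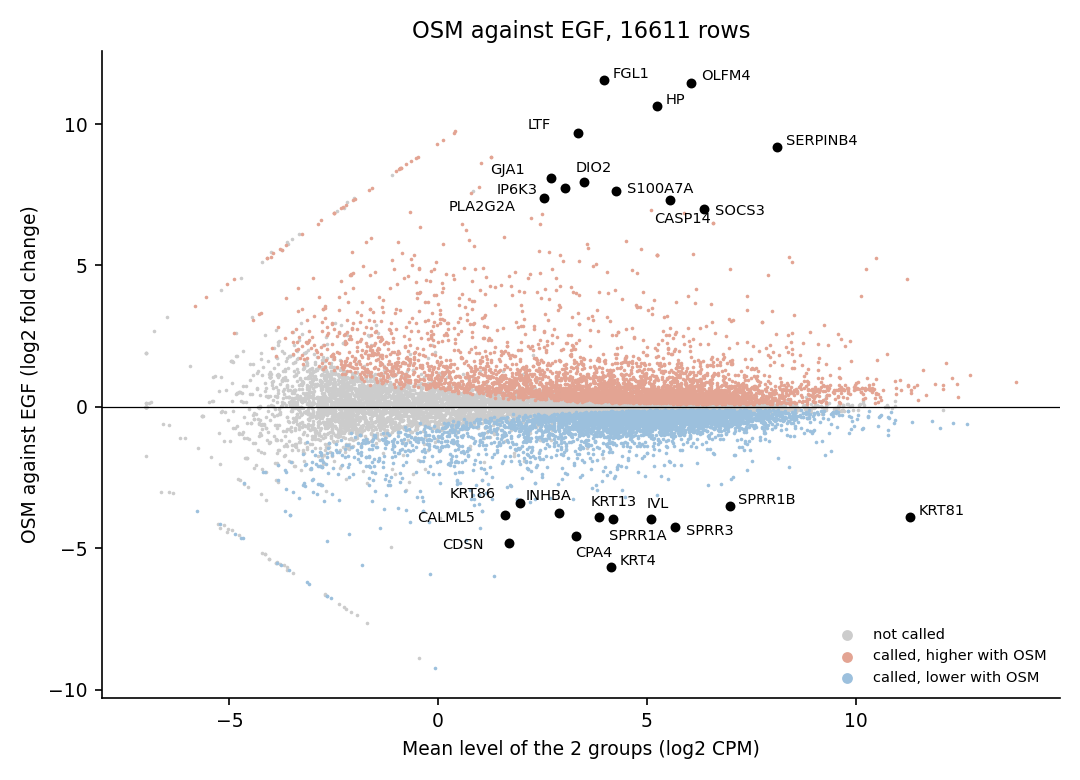
Level of each of the 16611 rows (x axis, log2 of the mean CPM of the EGF and OSM groups) against its log2 fold change (y axis, OSM against EGF), with called rows in colour and the 12 genes named for the largest differences in each direction in black. The 12 on the upper side reach a fitted log2 fold change of 11.55 (FGL1, which depends on the prior count), while the 12 on the lower side end at -5.67 (KRT4).

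Among protein-coding genes at 5 CPM or more in the higher group, the 12 with the largest rise were FGL1, OLFM4, HP, LTF, SERPINB4, GJA1, DIO2, IP6K3, S100A7A, PLA2G2A, CASP14 and SOCS3. Several encode secreted proteins of defence and the acute phase: FGL1 is a hepatokine, HP is haptoglobin, LTF is lactoferrin and PLA2G2A is a secreted phospholipase with antibacterial activity. In most of these the EGF cells had almost no transcript. FGL1 had counts of 0, 0 and 1 in the EGF libraries against 1019, 1605 and 1102 in the OSM libraries, a ratio of shares of the unadjusted totals of 3906 with an exact binomial interval of 701 to 154312 that covers counting error only. HP had counts of 5, 1 and 0 with EGF against 1905, 4773 and 2495 with OSM, and OLFM4, an olfactomedin-domain glycoprotein, 0, 4 and 2 against 4855, 7590 and 3516. LTF had 0, 3 and 0 counts against 628, 1445 and 422. The rule that chose these genes required that the libraries of the 2 ligands did not overlap, so their separation is not a separate result. GJA1 encodes the gap-junction protein connexin 43, DIO2 the deiodinase that activates thyroid hormone, and CASP14 the caspase of cornifying keratinocytes.

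By the same rule the 12 largest falls were KRT4, CDSN, CPA4, SPRR3, SPRR1A, IVL, KRT81, KRT13, CALML5, INHBA, SPRR1B and KRT86. All but CPA4, a carboxypeptidase, and INHBA, the activin A subunit, are keratins or genes of squamous differentiation. KRT4, a keratin of stratified mucosa, stood at 22.7, 36.6 and 45.1 CPM with EGF and 0.654, 0.974 and 0.351 CPM with OSM. CPA4 stood at 21.1, 20.0 and 15.4 CPM with EGF and 0.882, 1.04 and 0.405 CPM with OSM, a log2 fold change of -4.57 ± 0.28 (SE; edgeR adjusted p 1.0e-11). INHBA stood at 15.7, 14.2 and 11.6 CPM with EGF and 0.967, 0.886 and 1.24 CPM with OSM. CDSN, in 1 of 3 rows of that symbol, stood at 2.21, 7.79 and 8.68 CPM with EGF and 0.483, 0 and 0.216 CPM with OSM. Reads of near-identical family members (the KRT81 and KRT86 pair, the SPRR genes, SERPINB3 with SERPINB4, S100A7A with S100A7) can be split between them by the counting. Single values within such families, and in rows that share a symbol, are therefore uncertain.

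**Figure D2:**
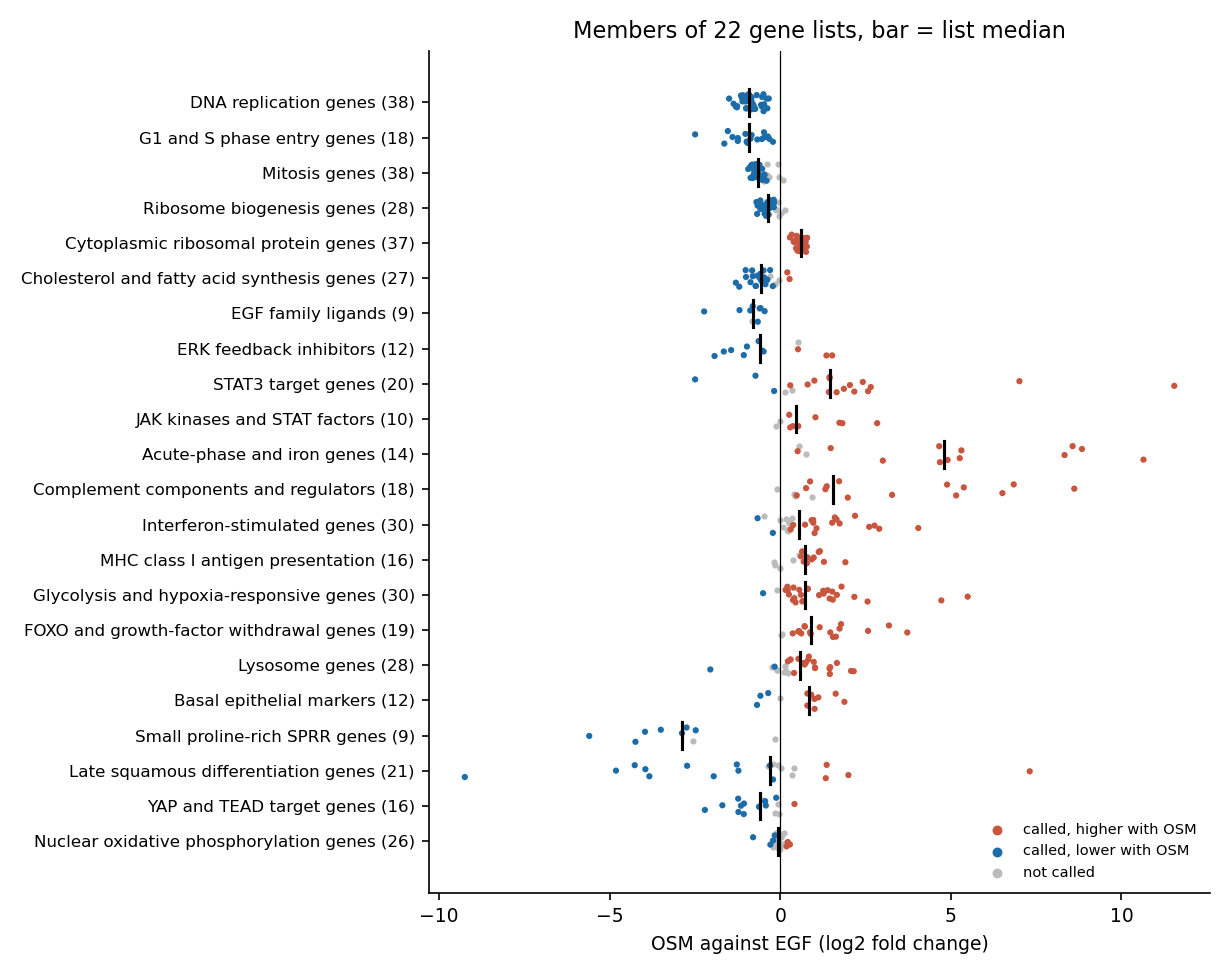
Log2 fold change of OSM against EGF (x axis) for each tested member of 22 gene lists (rows, number of members in brackets), with called members in colour, the others in grey and the list median as a black bar. Division, ribosome biogenesis and sterol lists lie left of 0, while STAT3, acute-phase, complement, hypoxia, FOXO and ribosomal protein lists lie right of it.

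SOCS3, the receptor genes OSMR, LIFR and IL6ST, and STAT3 were higher with OSM. SOCS3 (chromosome 17, 78356778 to 78360077, minus strand; all genome spans are those of GENCODE v44 on GRCh38, exons and introns together) stood at 1.52, 1.02 and 1.32 CPM in the EGF libraries and at 169, 182 and 143 CPM in the OSM libraries. The log2 fold change was 7.01 ± 0.16 (SE; edgeR adjusted p 1.5e-19), with PBS at 1.49 ± 0.318 CPM (SD, n = 3), close to the EGF libraries. OSMR, the ligand's own receptor chain (chromosome 5, 38845858 to 38945596, plus strand), stood at 158, 155 and 145 CPM with EGF and 577, 586 and 503 with OSM. Its log2 fold change was 1.86 ± 0.07, while that of IL6ST, which encodes the shared gp130 chain, was 0.29 ± 0.05 and that of LIFR was 1.39 ± 0.13 (SE; edgeR adjusted p 4.3e-16, 2.1e-05 and 5.0e-09). Of the ligands LIF and CLCF1 were lower. LIF, a gp130 cytokine of the same family, stood at 8.29, 7.07 and 6.04 CPM with EGF and 0.711, 0.819 and 0.540 CPM with OSM, below the PBS mean of 2.54 CPM, and CLCF1 differed by -1.56 on the log2 scale. In the list of gp130 cytokines and receptors, 4 of 10 tested members were higher, 3 lower and 3 not called.

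STAT3 stood at 176, 187 and 173 CPM with EGF and 615, 712 and 569.5 CPM with OSM, with no overlap, a log2 fold change of 1.82 ± 0.07 (SE; edgeR adjusted p 1.1e-16). Of 10 tested JAK and STAT genes, 8 were higher and 0 lower, with JAK2 (-0.14) and TYK2 (-0.01) not called. STAT4 (2.84 on the log2 scale) and STAT5A (1.73) were higher too, but STAT5A at 17.1 ± 5.01 CPM with OSM did not exceed its PBS mean of 24.6 CPM, and the EGF level was 5.14 ± 0.371 CPM (SD, n = 3). Among 9 SOCS-family inhibitors 3 were higher and 5 lower: CISH was higher (1.07), SOCS1 (-1.04) and SOCS6 (-0.70) lower. Of 20 genes listed as STAT3 targets, 15 were higher, 3 lower and 2 not called, with a median of 1.45 against -0.00 over all symbols tested. CCND1 was among the 3 lower ones. The mucin MUC1 stood at 133, 144 and 115 CPM with EGF and 861, 936 and 674 with OSM, BCL3 at 15.5 ± 1.20 and 83.2 ± 10.4 CPM (SD, n = 3). BCL6, a transcriptional repressor, stood at 14.8, 15.9 and 13.4 CPM with EGF and 93.5, 104 and 64.9 with OSM, the lowest of which, replicate 3, still lay above every EGF library.

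Promoter windows of 2 genes that were higher with OSM are printed because they hold the STAT palindrome TTCNNNGAA, in capitals. This form and the wider STAT form with 4 bases in the middle were searched, and both read alike on the 2 strands. BCL6 (chr3:187745419-187745718, minus strand) holds it 4 times and CFB, complement factor B (chr6:31945845-31946144, plus strand), once, 92 bases before the start. The windows run from 250 bases before to 50 bases after the annotated start, from RefSeq on GRCh38.p14. Among its 27305 promoters 13.6% hold either form, against 2 of the 14 STAT3-target promoters, 3 of 12 acute-phase promoters and 3 of 11 complement promoters found there. The SOCS3 window, also searched (chr17:78360876-78361175, minus strand), held neither form. It lies wholly before the gene's GENCODE span, which begins at 78360077 on that strand, so the bases around the GENCODE start were not searched. Among lists lower with OSM, 9 of 32 mitosis, 7 of 32 replication, 0 of 13 G1 and S-phase entry and 0 of 8 SPRR promoters held 1. Of the interferon-stimulated promoters, 8 of 22 did. RefSeq starts can differ from the GENCODE gene ends, and for BCL6, SOCS3 and GINS2 (below) they do.
BCL6: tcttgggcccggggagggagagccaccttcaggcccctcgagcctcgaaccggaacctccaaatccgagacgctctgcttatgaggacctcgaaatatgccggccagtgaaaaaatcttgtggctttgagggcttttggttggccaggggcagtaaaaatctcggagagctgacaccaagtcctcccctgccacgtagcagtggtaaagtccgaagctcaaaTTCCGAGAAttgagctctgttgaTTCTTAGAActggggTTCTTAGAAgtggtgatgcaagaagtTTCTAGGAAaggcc
CFB: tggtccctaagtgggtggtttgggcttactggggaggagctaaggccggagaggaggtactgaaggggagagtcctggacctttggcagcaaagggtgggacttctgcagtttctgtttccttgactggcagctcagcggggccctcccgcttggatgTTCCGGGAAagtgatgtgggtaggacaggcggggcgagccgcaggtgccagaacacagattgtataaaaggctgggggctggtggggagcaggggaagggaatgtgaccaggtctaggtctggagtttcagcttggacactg

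On the EGF side, genes of EGF-family ligands and of ERK feedback inhibitors were mostly lower with OSM. EGFR itself (chromosome 7, 55019017 to 55211628, plus strand) stood at 483, 542 and 542 CPM with EGF and 508, 509 and 547 CPM with OSM, overlapping ranges with a log2 difference of -0.00 ± 0.05 (SE), not called. All 8 called members of the 9 EGF-family ligands were lower with OSM (median -0.80). AREG, amphiregulin, an EGFR ligand that ERK induces, stood at 302, 251 and 288 CPM with EGF and 56.8, 42.3 and 80.4 CPM with OSM, against 10.8 CPM in PBS, a log2 fold change of -2.23 ± 0.22 between the ligands (SE; edgeR adjusted p 5.8e-08). NRG1 (-0.88) and EPGN (-0.80) were lower by less. In the list of ERK feedback inhibitors 8 of 12 were lower, 3 higher and 1 not called. SPRY4, a Sprouty inhibitor, stood at 74.7, 67.9 and 75.2 CPM with EGF and 18.9, 12.6 and 26.0 with OSM, where replicate 3 was again the highest, and the phosphatase DUSP4 at 154, 147 and 145 and 45.8, 35.4 and 60.7. SPRED3 was an exception, higher by 1.52 ± 0.20 on the log2 scale (SE).

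The ERK-responsive transcription factors were divided, 5 higher, 6 lower and 5 not called. The ETS factors ETV4 and ETV5 fell by 2.61 ± 0.22 and 1.82 ± 0.16 on the log2 scale (SE; edgeR adjusted p 1.4e-09 and 4.3e-09). The AP-1 genes FOS and FOSL2 were higher: FOS stood at 18.3, 16.6 and 16.1 CPM with EGF and 58.1, 58.5 and 57.7 with OSM, and FOSL2 at 120.1, 129.6 and 114 and 534, 584 and 452. The groups did not overlap in either gene. FOSL2 with OSM lay near the PBS mean of 554 CPM and FOS above its PBS mean of 27.9 CPM.

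**Figure D3:**
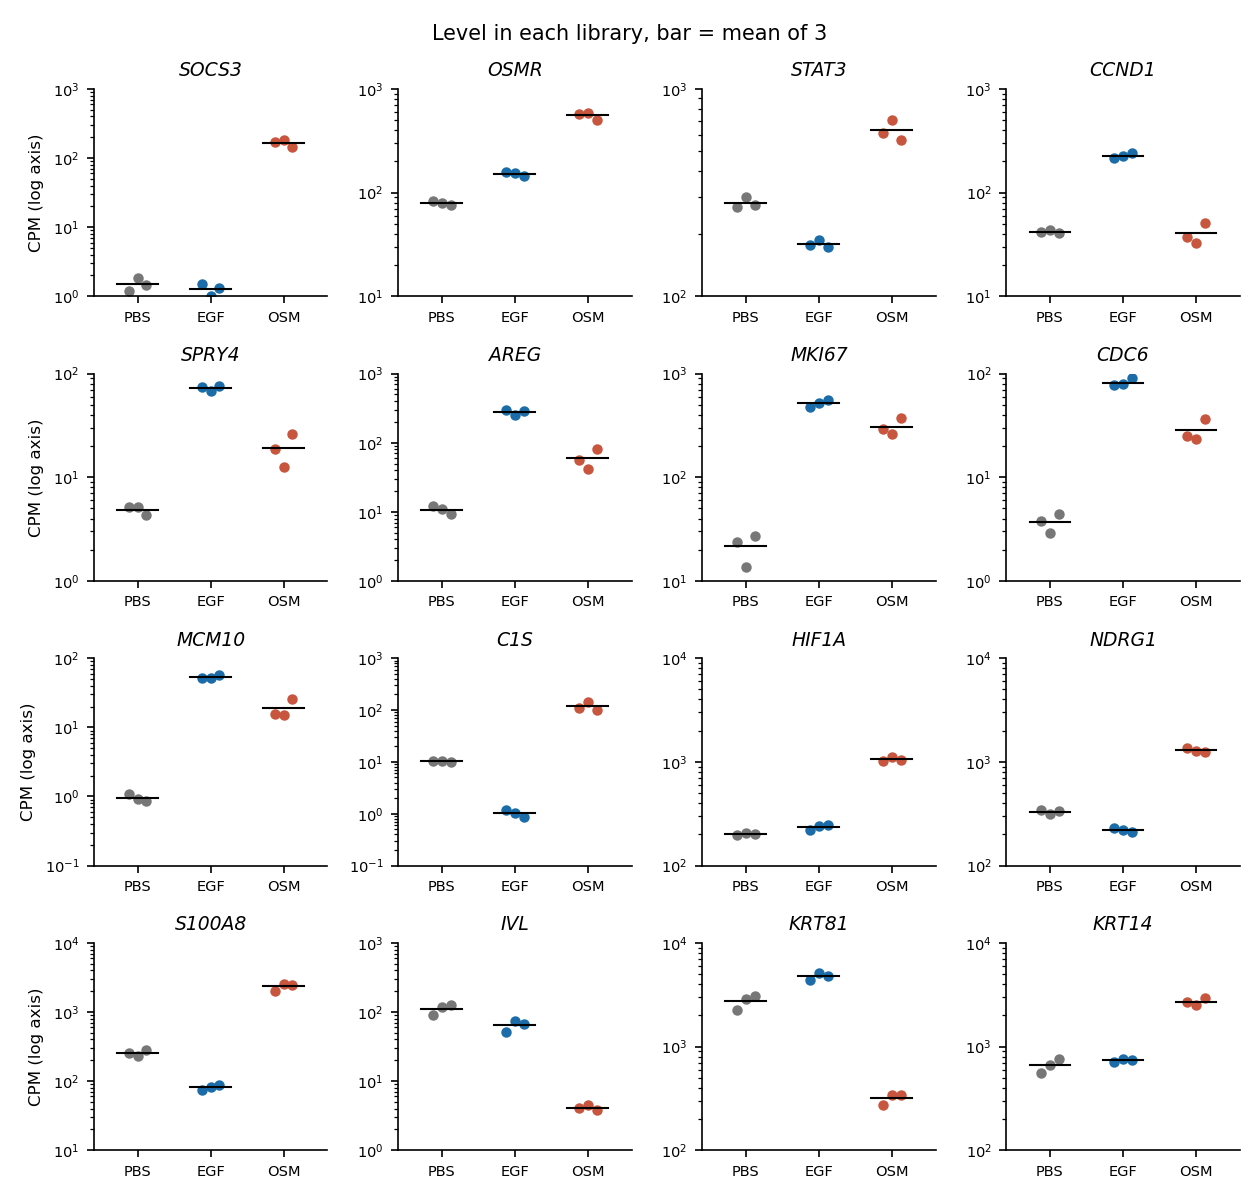
CPM (y axes, log scale) of 16 genes in each PBS, EGF and OSM library, with bars at the mean of 3 libraries. CCND1 with OSM lies at the PBS level while MKI67, CDC6 and MCM10 lie between PBS and EGF, and SOCS3, HIF1A, NDRG1, S100A8 and KRT14 are highest with OSM.

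Both ligands raised cell-division genes, and most of these genes were lower with OSM than with EGF. The list of 38 DNA replication genes was higher than PBS in 38 of 38 with each ligand, and so was the list of 38 mitosis genes (backgrounds of 33.8% of rows higher with EGF and 32.4% higher with OSM; both comparisons use the same PBS libraries). Between the ligands, all 38 replication genes (median -0.90), all 18 genes of G1 and S-phase entry (median -0.92) and 31 of 38 mitosis genes (median -0.66) were lower with OSM, and 0 of these 94 were higher. The list median of the replication genes was 8.88, 8.43 and 9.18 CPM in PBS, 29.8, 29.2 and 35.1 with OSM and 53.1, 52.1 and 57.2 with EGF. For mitosis it was 6.80, 5.24 and 6.69 CPM in PBS, 53.01, 47.7 and 68.3 with OSM and 93.6, 95.6 and 106 with EGF. In each list OSM replicate 3 lay nearest to the EGF libraries, and without it 38 replication, 18 entry and 35 mitosis genes were called lower. The mitosis count was 22 without EGF replicate 3 and 25 without OSM replicate 2. In RNA from whole wells, fewer dividing cells and less of these transcripts per dividing cell cannot be told apart.

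**Figure D4:**
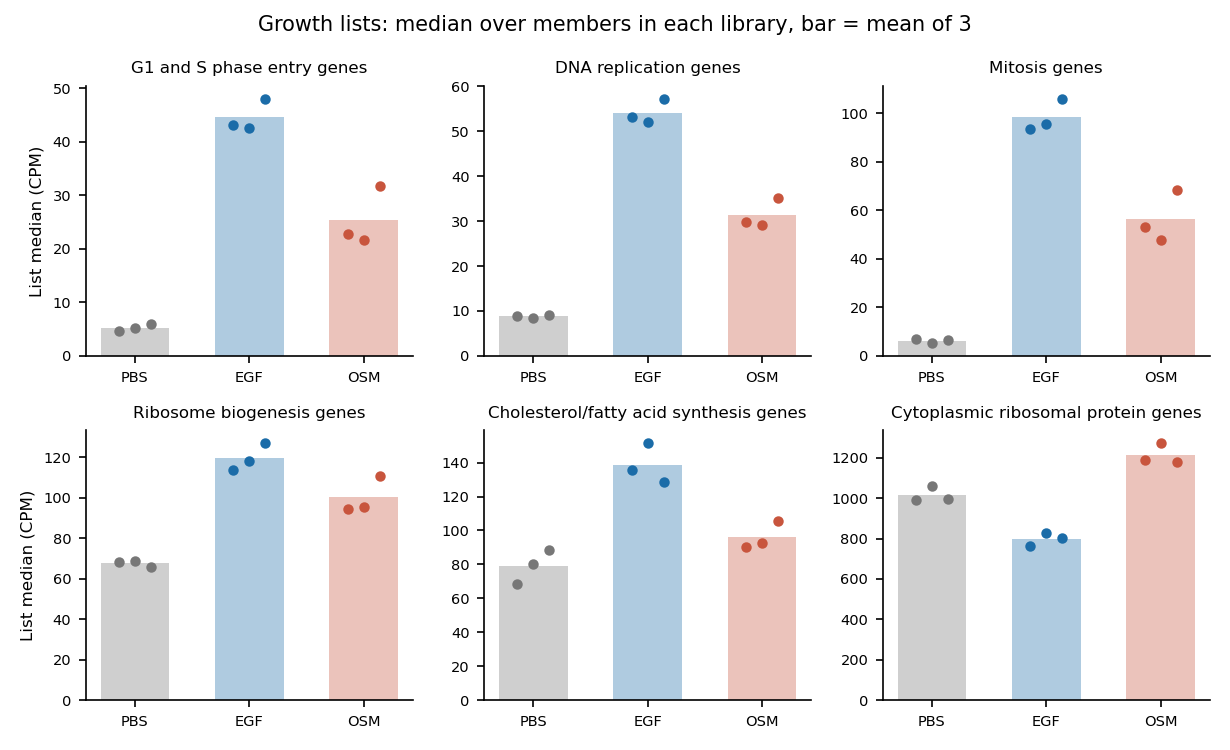
Median CPM over the tested members of 6 growth-related lists (y axes) in each PBS, EGF and OSM library (points), with bars at the mean of 3 libraries. In 5 panels the OSM libraries lie between PBS and EGF, and in the panel of cytoplasmic ribosomal protein genes they lie above both.

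Among the entry genes CCND1 had the largest fall. Cyclin D1 (gene CCND1, chromosome 11, 69641156 to 69654474, plus strand), which couples mitogens to the retinoblastoma protein, stood at 217, 225 and 241 CPM with EGF and 37.6, 32.8 and 50.9 CPM with OSM. The OSM libraries straddled the PBS values of 41.8, 43.3 and 40.6 CPM, and the log2 fold change between the ligands was -2.49 ± 0.14 (SE; edgeR adjusted p 1.9e-12). Against PBS, 14 of the 18 entry genes were higher with OSM, 1 lower and 3 not called, while all 18 were higher with EGF. CDC6, which loads the replicative helicase, stood at 77.4, 78.9 and 89.8 CPM with EGF, 25.2, 23.4 and 36.4 with OSM and 3.77, 2.91 and 4.40 with PBS, and E2F1 at 18.4 ± 1.85, 5.91 ± 1.16 and 2.97 ± 0.614 CPM (SD, n = 3). The phosphatase gene CDC25A fell by 1.40 ± 0.18 on the log2 scale (SE).

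MCM10, a helicase activator, showed the largest fall among the replication genes, with 51.2, 51.5 and 56.3 CPM under EGF and 15.8, 14.9 and 25.7 CPM under OSM (-1.50 ± 0.22 on the log2 scale, SE; edgeR adjusted p 8.7e-06). GINS2, CDC45 and CLSPN, of the helicase and the replication checkpoint, differed by -1.37, -1.27 and -1.30 on the log2 scale. Among mitosis genes MKI67, the source of the Ki-67 antigen, stood at 479, 521 and 557 CPM with EGF and 291, 264 and 371 CPM with OSM, separate ranges with a log2 fold change of -0.75 ± 0.21 (SE; edgeR adjusted p 0.0054). The spindle and cytokinesis genes KIF23 (-0.94), CEP55 (-0.87) and MAD2L1 (-0.86) and the factor FOXM1 (-0.87) were lower to a similar extent. The 7 mitosis genes that were not called were TOP2A (-0.06), CDC25C (0.07), CENPF (-0.32), KIF20A (-0.03), PTTG1 (-0.39), NUSAP1 (-0.47) and DLGAP5 (-0.40). TOP2A stood at 288, 296 and 332 CPM with EGF and 285, 266 and 329 with OSM, against 21.7 CPM in PBS.

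The promoters of these lists carry the usual cell-cycle elements, and 1 of each kind is printed because the lists moved together. The cell cycle homology region (CHR, TTTGAA) was found on either strand in 23 of the 32 mitosis promoters in the table, against 15.4% of all promoters, and the NF-Y box CCAAT in 25, against 35.7%. An E2F element (TTTCCCGC or TTTGGCGC) was found in 16 of 32 replication promoters and 6 of 13 entry-gene promoters, against 2.31% of all promoters. The reversed CHR letters can overlap a STAT palindrome. MKI67 (chr10:128126374-128126673, minus strand) has 2 CHR and 2 CCAAT matches, in capitals, and GINS2 (chr16:85688905-85689204, minus strand) has 1 E2F match, 31 bases before the start.
MKI67: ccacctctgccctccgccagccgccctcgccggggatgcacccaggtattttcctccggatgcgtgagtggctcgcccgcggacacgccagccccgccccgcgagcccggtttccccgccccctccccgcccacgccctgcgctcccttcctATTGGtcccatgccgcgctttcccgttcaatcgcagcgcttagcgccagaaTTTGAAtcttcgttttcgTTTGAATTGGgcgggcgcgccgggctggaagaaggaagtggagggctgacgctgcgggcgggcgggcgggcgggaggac
GINS2: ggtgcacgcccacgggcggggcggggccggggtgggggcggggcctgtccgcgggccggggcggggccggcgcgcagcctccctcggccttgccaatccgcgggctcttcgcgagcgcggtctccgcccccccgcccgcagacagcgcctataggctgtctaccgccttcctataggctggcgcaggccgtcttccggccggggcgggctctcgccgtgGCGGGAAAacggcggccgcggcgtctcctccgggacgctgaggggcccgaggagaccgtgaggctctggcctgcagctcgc

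Brakes of the cycle were called less often than the division genes above. CDKN1A, p21, stood at 236, 256 and 200.2 CPM with EGF and 266, 284 and 208 with OSM, overlapping and not called, and CDKN1B, p27, at 23.3, 23.1 and 24.6 and 26.9, 28.3 and 25.1, separate but not called (0.18 ± 0.10 on the log2 scale, SE). Of 8 tested inhibitors and pocket-protein genes 1 was higher and 3 lower, a called share of 50%, near the 57.7% of all symbols tested. RBL2, the pocket protein of quiescent cells, was the higher one, at 51.9, 47.1 and 47.2 CPM with EGF and 73.5, 72.7 and 68.3 with OSM, and RBL1 (-0.89), RB1 (-0.38) and CDKN2C (-0.39) were lower. MYC was not called: it stood at 331, 351 and 354 CPM with EGF and 384, 398 and 362 with OSM, without overlap but with a log2 difference of only 0.14 ± 0.09 (SE), both ligands above the PBS mean of 251 CPM. Of 11 tested genes of the MYC network 6 were higher, 1 lower and 4 not called, a called share near the background. The higher ones included the antagonists MXI1 (1.55), MXD4 (1.27) and MNT (0.43) and the paralog MYCL (2.35).

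Ribosome genes divided by kind. Of 28 ribosome biogenesis genes, which make and assemble ribosomal RNA, 22 were lower with OSM, 0 higher and 6 not called (median -0.36). TCOF1, needed for transcription of ribosomal DNA, stood at 328, 316 and 355 CPM with EGF and 196, 181 and 238 with OSM. The structural proteins went the other way: all 37 cytoplasmic ribosomal protein genes were higher with OSM (median 0.60, range 0.28 to 0.79). RPLP0 stood at 1729, 1882 and 1817 CPM with EGF, 2563, 2825 and 2641 with PBS and 2999.7, 3354 and 2978 with OSM, and the 37 genes stayed called without OSM replicate 3. Sterol and fatty acid synthesis was lower with OSM in 22 of 27 genes and higher in 2 (0 higher without OSM replicate 2 or 3; median -0.58). HMGCS1, of the mevalonate pathway, stood at 242, 260.5 and 232 CPM with EGF and 90.5, 92.7 and 137 with OSM, and FDPS (-1.01), INSIG1 (-1.004) and ELOVL6 (-1.30) fell alike.

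Acute-phase, complement and antigen-presentation genes made up a second block, higher with OSM than with EGF. Against PBS, OSM was higher in 10 of 14 tested acute-phase, 12 of 18 complement and 4 of 16 antigen-presentation genes. It was lower in 2, 1 and 1. EGF was lower than PBS in 7, 13 and 11 and higher in 2, 3 and 2. Over all rows 32.4% were higher and 28.5% lower with OSM, and 33.8% and 37% with EGF. These comparisons share the PBS libraries. Of 19 acute-phase and iron genes 14 passed the filter on low counts, of which 12 were higher and 0 lower; LCN2 (0.75) and A2M (0.54) were not called. Members detected in one group alone had to differ to pass that filter, so the list's median of 4.79 (4.79 also with FGA and FGB at their lower bounds) describes the members that passed. The fibrinogen chain genes FGA and FGB had no count in the 3 EGF libraries and 121 and 142 in the OSM libraries together, at least 42.3-fold and 49.6-fold higher when 3 counts over the EGF group are taken as the floor. LBP, the lipopolysaccharide-binding protein, had 1 count with EGF against 580 with OSM, a ratio of 608 with a counting interval of 109 to 24055.

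Complement was higher in 14 of 18 genes and lower in 0 (12 and 0 without OSM replicate 3). C1S (chromosome 12, 6988259 to 7071032, plus strand) and C1R (chromosome 12, 7080214 to 7092540, minus strand), neighbouring genes for the proteases that start the classical pathway, rose together. C1S stood at 1.16, 1.02 and 0.880 CPM with EGF, 10.3, 10.4 and 10.1 with PBS and 111, 143 and 99.0 with OSM, and C1R at 2.23, 1.94 and 2.08, 16.1, 15.9 and 15.6 and 185, 234 and 150.2. PBS lay between the ligands in both genes, above EGF and below OSM. The log2 fold changes between the ligands were 6.84 ± 0.20 and 6.51 ± 0.17 (SE; edgeR adjusted p 2.6e-17 and 3.0e-18). CFB stood at 1.605, 2.02 and 1.69 CPM with EGF and 63.9, 100.5 and 57.7 with OSM, in 1 of 7 rows that share its symbol, and C4A, whose reads can be shared with its copy C4B, had 1 count with EGF against 486 with OSM.

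Of 30 interferon-stimulated genes 17 were higher, 2 lower and 11 not called (median 0.55). The called share of 63.3% was near the 57.7% of all symbols tested. The membrane proteins IFITM3 (136, 149.9 and 144 CPM with EGF, 1012, 1213 and 983 with OSM) and IFITM1 (4.05) led. Usual reporters of type I interferon, ISG15 (0.36), MX1 (0.16), OAS1 (0.09) and IFIT1 (0.20), were not called. In the MHC class I pathway 11 of 16 were higher and 0 lower, with the proteasome subunit PSMB9 (1.91), the peptide trimmer ERAP1 (1.28) and the peptide loaders TAPBP (1.16) and TAP1 (1.13) leading. TAP1 with OSM (48.2 ± 7.60 CPM) lay at its PBS level (45.5 ± 6.37 CPM; SD, n = 3) and with EGF lower (22.04 ± 2.50 CPM).

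In the interleukin-1 family 5 of 9 tested genes were higher and 4 lower. IL1R1, the signalling receptor, stood at 14.1, 13.9 and 13.1 CPM with EGF and 173, 185 and 154 CPM with OSM, against 107, 101 and 116 in PBS (log2 fold change between ligands 3.64 ± 0.08, SE; edgeR adjusted p 2.2e-20). The decoy receptor IL1R2 (4.07), the interleukin-33 receptor IL1RL1 (4.77) and IL33 itself (1.93) were higher too. Among NF-kB factors and feedback genes 9 of 15 were higher, led by BCL3 and NFKBIZ (1.36), and 2 lower. Chemokines were higher in 8 of 15 tested and lower in 1, CXCL8 (-1.93), which encodes interleukin-8, and 5 were higher without OSM replicate 2. The called share of 60% was near the 57.7% of all symbols tested. The largest rises were in genes of low level: CXCL14 stood at 4.64 ± 0.939 CPM with OSM and 0.702 ± 0.0486 with EGF, and CCL2 had 3 counts over the EGF libraries and 49 over the OSM libraries.

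The calprotectin genes S100A8 and S100A9, antimicrobial proteins of stressed epithelium and neutrophils, were among the most abundant transcripts to differ. S100A8 stood at 74.8, 81.8 and 86.7 CPM with EGF and 2025, 2548 and 2490.4 CPM with OSM, and S100A9 at 182, 214 and 216 and 4174, 5152 and 4629. The log2 fold changes were 4.86 ± 0.19 and 4.51 ± 0.18 (SE; edgeR adjusted p 1.5e-14 and 1.8e-14), and PBS lay between at 256 ± 26.4 and 544 ± 38.8 CPM (SD, n = 3). Of 16 S100 genes 7 were higher and 7 lower. The serpins SERPINB3 and SERPINB4, squamous cell carcinoma antigens, stood at 620.3, 782 and 675 and 512, 673 and 486 CPM with OSM against 16.8, 20.9 and 22.6 and 0.959, 0.919 and 0.978 with EGF, while SERPINB7 was lower (-1.47).

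Basal epithelial genes were mostly higher with OSM and genes of the cornified envelope mostly lower. Of 12 basal markers 8 were higher, 3 lower and 1 (EGFR) not called, with a median of 0.85. The lower ones reached -0.68 on the log2 scale, and the genes named next are from the higher ones only. KRT14, the keratin of basal cells, stood at 710.4, 753 and 748 CPM with EGF and 2673, 2512 and 2959 CPM with OSM, a log2 fold change of 1.88 ± 0.10 (SE; edgeR adjusted p 4.1e-13), with PBS near the EGF level at 660.3 ± 95.7 CPM. TP63, the basal transcription factor, stood at 88.0, 85.5 and 86.5 CPM with EGF and 195, 183 and 185 with OSM, and P-cadherin (CDH3, 1.62), KRT17 (1.01) and integrin beta 4 (ITGB4, 0.91) rose with them. Luminal markers were even, 4 higher and 4 lower: MUC1 and ESR1 (2.04) were higher and FOXA1 (-1.64) lower.

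Among 22 tested keratins 12 were lower and 7 higher. KRT81 (chromosome 12, 52285913 to 52291534, minus strand), a hair keratin and one of the most abundant transcripts of the EGF cells, stood at 4345, 5114 and 4830.5 CPM with EGF and 273, 339 and 343 CPM with OSM, a log2 fold change of -3.90 ± 0.16 (SE; edgeR adjusted p 1.8e-14). The small proline-rich SPRR genes, whose products are crosslinked into the cornified envelope, were lower in 7 of 9 tested and higher in 0, with a median of -2.88. SPRR1B (chromosome 1, 153031203 to 153032900, plus strand) stood at 564, 659 and 746 CPM in PBS, 204, 242 and 254 with EGF and 17.6, 26.0 and 18.0 with OSM, the highest level being that of PBS. IVL, involucrin (chromosome 1, 152908546 to 152911886, plus strand), stood at 91.3, 116 and 127 CPM in PBS, 51.4, 74.1 and 66.4 with EGF and 4.01, 4.50 and 3.84 with OSM. Both ligands were thus below PBS, OSM further, with log2 fold changes between the ligands of -3.50 ± 0.21 and -3.95 ± 0.18 (SE; edgeR adjusted p 1.9e-11 and 9.8e-14).

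Of 21 tested genes of late squamous differentiation 11 were lower, 4 higher and 6 not called. CRNN, cornulin, had 50, 99 and 106 counts in the EGF libraries and 0 in each OSM library, at least 81.1-fold lower, and the desmosomal cadherin DSG1 (-4.27) was lower. CASP14 went against the list, with 0.691, 0.499 and 0.587 CPM with EGF and 105, 105 and 71.7 with OSM. The kallikrein proteases, which shed cornified cells, were lower in 4 of 9 and higher in 0, led by KLK10 (-2.39), and 7 were lower without OSM replicate 2. Their called share of 44.4% did not exceed the 57.7% of all symbols tested. Desmosome and tight junction genes were called at about the background share, 5 higher and 5 lower of 18.

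The windows of SPRR1B (chr1:153030953-153031252, plus strand) and IVL (chr1:152908296-152908595, plus strand) are printed because both hold the AP-1 element TGANTCA on either strand, in capitals, 2 times in SPRR1B and 1 time in IVL. It was present in 6 of 8 SPRR promoters and 8 of 20 late-squamous promoters of the table, against 7.76% of all promoters. It stood in 5 of the 9 promoters found for the 12 genes with the largest falls, and in 4 of the 10 found for the 12 with the largest rises (GJA1, OLFM4, DIO2 and CASP14).
SPRR1B: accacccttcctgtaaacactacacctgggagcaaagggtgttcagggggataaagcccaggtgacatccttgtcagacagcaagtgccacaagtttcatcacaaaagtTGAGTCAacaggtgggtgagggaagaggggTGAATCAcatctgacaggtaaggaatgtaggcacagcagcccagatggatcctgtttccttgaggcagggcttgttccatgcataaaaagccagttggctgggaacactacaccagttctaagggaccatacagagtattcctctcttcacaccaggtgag
IVL: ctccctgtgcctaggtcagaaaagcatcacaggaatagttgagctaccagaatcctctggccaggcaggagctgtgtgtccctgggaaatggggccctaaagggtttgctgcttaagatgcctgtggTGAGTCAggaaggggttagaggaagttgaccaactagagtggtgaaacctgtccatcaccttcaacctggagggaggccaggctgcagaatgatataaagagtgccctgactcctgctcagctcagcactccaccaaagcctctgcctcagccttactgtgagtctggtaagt

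Targets of YAP and TEAD, which respond to cell tension, were mostly lower with OSM, and contractile genes were divided. Of 17 tested contractile genes 8 were lower, 3 higher and 6 not called, a called share of 64.7% against 57.7% of all symbols tested. TAGLN, transgelin, stood at 197, 215 and 158 CPM with EGF and 29.8, 26.6 and 29.6 with OSM, close to the PBS values of 24.3, 20.6 and 20.5, and MYL9 (-2.12), ACTG2 (-3.31) and TPM1 (-0.96) were lower. The YAP and TEAD targets were lower in 11 of 16 and higher in 1 (median -0.58). CCN2, connective tissue growth factor, stood at 35.7, 31.2 and 29.2 CPM with EGF and 6.77, 5.69 and 8.43 with OSM, and CCN1 at 52.8, 54.9 and 54.1 and 16.2, 14.7 and 19.0. AXL (-1.23) and tissue factor F3 (-1.07) were lower too.

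Of 16 genes of epithelial-mesenchymal transition 6 were lower, 2 higher and 8 not called, among them VIM (-0.11). The called share of 50% was near the 57.7% of all symbols tested. SNAI1, the Snail repressor, and ZEB2 (1.03) were the higher ones, SNAI1 at 0.290, 0.419 and 0.367 CPM with EGF and 15.2, 15.97 and 13.5 CPM with OSM (log2 fold change 5.36 ± 0.17, SE; edgeR adjusted p 1.7e-17), while N-cadherin (CDH2, -0.96) and fibronectin (FN1, -0.86) were lower. Of 19 tested metalloproteinases and inhibitors 10 were higher and 5 lower (6 higher without OSM replicate 2). MMP3, stromelysin 1, stood at 0.134, 0.0400 and 0.0978 CPM with EGF and 10.0, 11.4 and 6.46 with OSM, whereas MMP1 (3.81, 2.64 and 3.35 against 0.284, 0.310 and 0.432 CPM), MMP9 (26.7, 26.97 and 18.8 against 3.73, 3.52 and 3.43 CPM) and MMP10 (11.01, 8.65 and 7.50 against 1.02, 0.709 and 1.13 CPM) were lower with OSM. Tenascin C (TNC) stood at 169, 174 and 109 CPM with EGF and 745, 686 and 708 with OSM, laminin beta 1 (LAMB1) was higher by 1.598 on the log2 scale, and COL8A1 lower (-2.43). Integrins were higher in 6 of 13 and lower in 4, with ITGB3 (2.06) and ITGB6 (1.49) leading. The plasminogen activator PLAU was lower (-1.12) and its inhibitor SERPINE2 higher (1.13).

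Hypoxia-responsive and glycolytic genes were higher with OSM in 27 of 30 and lower in 1 (24 and 2 without OSM replicate 3), with a median of 0.73. HIF1A (chromosome 14, 61695513 to 61748259, plus strand), the oxygen-regulated transcription factor, stood at 197, 205 and 201 CPM in PBS, 222, 238 and 245 with EGF and 1029.6, 1112 and 1035 CPM with OSM, a log2 fold change of 2.17 ± 0.05 between the ligands (SE; edgeR adjusted p 2.3e-20). Its known targets EGLN3, the prolyl hydroxylase, and CA9, a carbonic anhydrase, rose with it. EGLN3 stood at 2.01, 2.14 and 1.78 CPM with EGF and 57.2, 52.8 and 47.3 with OSM, and CA9 at 0.401, 0.120 and 0.171 and 12.3, 9.50 and 9.59. NDRG1, a stress gene, stood at 232, 218 and 210.4 and 1376, 1286 and 1234. Of 26 nuclear genes of oxidative phosphorylation 18 did not pass the test, with 4 higher and 4 lower and a median of -0.07. This count was not stable: without OSM replicate 3 it was 2 higher and 11 lower, without OSM replicate 2 it was 1 higher, and with the replicate number as a block 6 higher and 10 lower. Cytochrome c (CYCS, -0.80) was the largest fall. Of 13 mitochondrially encoded genes 2 were higher, MT-ND1 (0.41) and MT-CO1 (0.35), and 8 were higher without EGF replicate 1.

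Genes that FOXO factors induce when growth factors are withdrawn were higher with OSM in 17 of 19 and lower in 0 (median 0.89). FBXO32, atrogin 1, stood at 262, 273 and 268 CPM in PBS, 7.38, 8.29 and 6.33 with EGF and 110.1, 133 and 48.3 with OSM, where replicate 3 was the lowest OSM library and still above every EGF library. PIK3IP1, an inhibitor of PI3-kinase, stood at 22.8, 24.2 and 21.0 CPM in PBS, 4.10, 3.76 and 1.83 with EGF and 33.3, 35.6 and 20.0 with OSM. GABARAPL1, of autophagy, and KLF9 were higher by 1.78 and 1.63 on the log2 scale. In the 19 genes the OSM libraries were called below PBS in 13 and above it in 1, and the EGF libraries below PBS in 19 (backgrounds of 28.5% lower and 32.4% higher with OSM, and 37% lower with EGF; shared PBS libraries).

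Lysosomal genes were higher with OSM than with EGF in 19 of 28 and lower in 2 (4 lower without OSM replicate 2 or 3; median 0.59). Against PBS, 8 of the 28 were higher and 14 lower with OSM, and 4 were higher and 22 lower with EGF. Over all rows 32.4% were higher and 28.5% lower with OSM, and 33.8% and 37% with EGF. Cathepsin B (CTSB, 1 of 2 rows of that symbol) stood at 318, 331 and 303 CPM with EGF and 1429, 1397 and 1409 with OSM, and cathepsin L (CTSL) at 89.0, 86.1 and 90.3 and 356, 385 and 378. Its close relative cathepsin V (CTSV) was opposite, at 82.3, 90.2 and 69.4 and 21.5, 18.7 and 18.3. ATF4 targets were divided, 7 higher and 9 lower of 20, with TRIB3 (-1.24) and PSAT1 (-1.002) lower, and so were NRF2 targets, 6 higher and 9 lower of 22, with AKR1B10 (3.04) and HMOX1 (2.16) higher. The called shares of these lists were 80% and 68.2%, against 57.7% of all symbols tested. Glucocorticoid-responsive and steroid genes were higher with OSM than with EGF in 9 of 13, among them SGK1 (1.75) and GREB1 (2.15). Against PBS, 11 of the 13 were lower and 1 higher with OSM, and 12 were lower and 0 higher with EGF. HSD11B2, which inactivates cortisol, was lower, at 395, 528 and 553 CPM in PBS, 40.8, 54.6 and 42.5 with EGF and 9.32 ± 2.35 with OSM (SD, n = 3). Prostaglandin genes were lower in 6 of 12, among them the synthase PTGES (-0.93) and the receptor PTGER4 (-2.14), while the transporter SLCO2A1 was higher (4.26). Their called share of 58.3% was near the 57.7% of all symbols tested.

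In the BCL2 family 5 of 16 were higher and 7 lower. BCL2, the survival factor, stood at 4.24, 4.93 and 4.69 CPM with EGF and 1.02, 0.974 and 1.67 with OSM, and the pro-death gene BCL2L11, or BIM, at 20.1, 22.1 and 19.6 and 81.6, 94.7 and 65.1. BMF, likewise pro-death, was higher (1.85 ± 0.25 on the log2 scale, SE), but both ligands left it below the PBS mean of 116 CPM. Notch genes were higher in 6 of 14 and lower in 5 (3 lower without EGF replicate 3), with DLL1 (3.96) and NOTCH3 (1.28) higher. In the TGFB pathway 12 of 26 were higher and 7 lower. TGFBR1 was higher (1.12) and the activin antagonist FST, like INHBA, lower (-3.37).

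The label of an epithelial line was checked against markers of other cell types. Of 11 leukocyte markers 4 passed the low-count filter, and CD3D, MS4A1 and NKG7 had no count in the 6 libraries. PTPRC had 6 counts over the EGF libraries and 15 over the OSM libraries, ITGAM 23 and 22, and CSF1R 2462 and 2597. The summed level of the 11 ranged from 44.4 to 49.6 CPM with EGF, 113 to 143 with OSM and 101 to 111 in PBS, and 2 members were higher with OSM. CD14, a co-receptor for lipopolysaccharide, stood at 5.91, 7.37 and 6.38 CPM with EGF, 55.0, 79.2 and 56.6 with OSM and 27.8, 33.9 and 31.9 in PBS, and CD68 differed by 0.89 on the log2 scale. Of 10 fibroblast markers 6 passed, 3 of which were higher, with a sum of 54.4 to 65.9 CPM with EGF, 206 to 238 with OSM and 135 to 140 in PBS, while DPT was at 0 and COL3A1 had 1 count in the 6 libraries. COL1A1 had 2895 counts over the EGF libraries and 3048 over the OSM libraries. DCN, decorin, stood at 9.67, 13.3 and 10.9 CPM with EGF and 71.6, 82.1 and 64.3 with OSM. FAP, a surface protease, stood at 30.1, 29.8 and 22.4 CPM with EGF and 138, 128 and 118 with OSM. Of 7 tested endothelial markers 2 were higher and 2 lower, ENG among the lower (-0.82), with a sum over 10 markers of 65.9 to 70.9 CPM with EGF, 37.2 to 47.6 with OSM and 49.2 to 56.1 in PBS, and CDH5 had 1 count in the 6 libraries. PECAM1 had 84 counts over the EGF libraries and 199 over the OSM libraries, and KDR 119 and 178. Called shares of the tested markers were 50% for leukocyte, 50% for fibroblast and 57.1% for endothelial markers, against 57.7% of all symbols tested. The part of these markers in the results was not tested.

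Cells given EGF and OSM together often lay between the single ligands, whose own libraries chose the genes compared here. Of 1233 symbols at least 2-fold higher with OSM than with EGF, the mean of EGF+OSM lay between the single ligands in 787. It lay above both in 64 and below both in 382, and on the log2 scale of CPM it lay nearer to EGF in 934. Of 718 symbols at least 2-fold lower with OSM it lay between in 396, above both in 143 and below both in 179. On the log2 scale it lay nearer to EGF in 359 of these and to OSM in 359. SOCS3 reached 86.2 ± 4.15 CPM, HIF1A 566 ± 24.2 CPM and CCND1 118 ± 6.67 CPM with both (SD, n = 3), each between the single ligands. Of the division genes, MKI67 stood at 634 ± 66.1 CPM and MCM10 at 65.1 ± 5.40 CPM, means above those of both single ligands. Neither was called against EGF alone (33% of rows were called in that comparison). Of the FOXO genes FBXO32 stood at 3.56 ± 0.774 CPM, lower than with EGF alone (edgeR adjusted p 0.043), and PIK3IP1 at 2.57 ± 0.683 CPM, not called against EGF. Of the squamous genes that were lower with OSM, SPRR1B stood at 12.9 ± 2.20 CPM, IVL at 5.06 ± 1.29 CPM and KRT4 at 0.437 ± 0.201 CPM, all nearer to OSM than to EGF. CASP14, which was higher with OSM, stood at 11.8 ± 3.43 CPM, nearer to EGF on the CPM scale. The complement gene C1S stood at 6.05 ± 1.55 CPM with both ligands, nearer to EGF than to OSM on the CPM scale, whereas IFITM3 stood at 565 ± 26.2 CPM.

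The same exchange of EGF for OSM could be read in 6 other libraries, where TGFB was present with each ligand. There 9190 rows (55.3%) were called by the same test, 7342 of them also called without TGFB, which is 81.2% of the calls without TGFB and 79.9% of those with it. The direction was the same in 7251 of these 7342 rows and opposite in 91. Across the 16611 rows the log2 fold changes of the 2 exchanges, which share no library, correlated with r = 0.750 over rows, which are not independent and come from libraries of different depth. The size of the exchange itself differed with TGFB in 1071 rows (6.45%), tested as a difference of the 2 contrasts. In the lists of G1 and S-phase entry (18) and of replication (38) 0 members differed in this way, and in the mitosis list 4 of 38. The list medians were nonetheless further below 0 with TGFB, at -1.17, -1.15 and -1.39 against -0.92, -0.90 and -0.66 without. This shift of the medians was not tested. Among the largest differences, CXCR1, a chemokine receptor, was 0.561 ± 0.0492 CPM with EGF and 20.1 ± 5.46 with OSM, but 2.25 ± 0.302 and 7.52 ± 1.20 CPM when TGFB was present (SD, n = 3). MMP13, collagenase 3, was 0.301 ± 0.0872 CPM with EGF and 1.04 ± 0.594 with OSM, and 0.433 ± 0.246 and 10.8 ± 5.59 CPM with TGFB. The protease gene ADAMTS9 and the kinase gene MAPK4 turned their direction. ADAMTS9 was 2.21 ± 0.579 CPM with EGF and 5.95 ± 2.12 with OSM, but 6.605 ± 1.48 and 3.26 ± 1.13 CPM with TGFB.

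**Figure D5:**
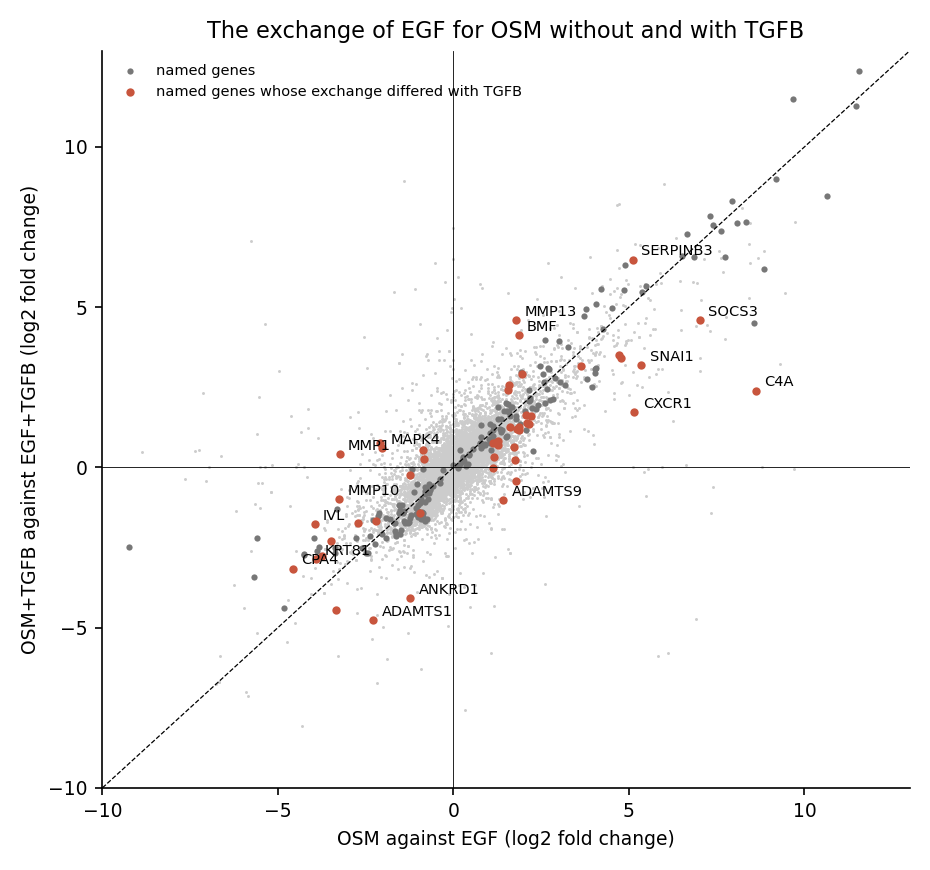
Log2 fold change of OSM against EGF (x axis) and of OSM+TGFB against EGF+TGFB (y axis) for 16611 rows in light grey, the named genes in dark grey and the 48 named genes whose exchange differed with TGFB in red, with the line of equality dashed. Most named genes lie near the line, SOCS3, C4A and CXCR1 lie below it and MMP13 and BMF above it.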

How the data were processed

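The deposited table held estimated counts from polyadenylated RNA (a stranded library kit), 40487 Ensembl rows by 27 libraries. Per the submitters' processing notes the authors used Trim Galore 0.4.3, cutadapt 1.10, FastQC 0.11.5, kallisto 0.46.2 and R 3.5.0, with builds GRCh38.p5 and hg38; the annotation release, strand setting and rounding are not given in the sources used here. The deposited values were already whole, so rounding changed nothing. Rows without a symbol took 0.335% to 0.356% of counts in the 6 libraries and stayed in the tests; 1762 tested rows shared a symbol with another row, and for lists 1 row per symbol, that with the highest mean, was used.

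Rows were filtered with filterByExpr by group (16611 left), scaled by TMM and fitted with edgeR 4.0.16 (R 4.3.3; glmQLFit, robust) with a mean for each of 9 groups over all 27 libraries, 18 residual degrees of freedom. Contrasts were tested with glmQLFTest, Benjamini-Hochberg over all rows; a call is an adjusted p under 0.05. CPM used TMM-scaled totals; fold changes have a prior count of 0.125. The biological coefficient of variation was 10.1%, so spread between libraries, more than depth, sets the precision. Pairs of replicates differed by more than counting noise (chi-square per degree of freedom 8.27 to 33.3). On simulated counts with 200 changed genes the test was checked before use. Ratios and lower bounds from raw counts use unadjusted totals; their intervals are exact binomial, 95%.

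The comparison, the 56 gene lists and the tests were chosen with earlier results of these data known. Named genes are the 12 largest called, non-overlapping differences in each direction with at least 5 CPM in the higher group, up to 4 called members of each list plus exceptions, 11 receptor, STAT and cell-cycle genes, and the 4 largest differences between the exchanges with and without TGFB in each direction. Lists are described by counts and medians, with no set test. Promoter windows come from RefSeq (GRCh38.p14; 1 per symbol, unplaced and alternate loci left out). Alternatives were DESeq2 1.42.0, other scalings and filters, a 2-fold limit, summed symbols, fewer libraries and a replicate block.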

Additional observations from a re-analysis of the deposited data

Results flagged for a closer look

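The difference between OSM and EGF itself differed when TGFB was present in 48 of the 233 named genes. The test was edgeR's quasi-likelihood test of the difference of the exchanges (adjusted p under 0.05), which called 6.45% of all rows. Many named genes were chosen for large differences between the single ligands, and some for large differences of the exchanges. That choice raises the count and favours smaller differences with TGFB, so neither is a result about these genes as a set. Values in brackets are log2 fold changes of OSM+TGFB against EGF+TGFB minus those of OSM against EGF, and no cause was tested. In the gp130 pathway the rise with OSM was smaller with TGFB in SOCS3 (-2.43), OSMR (-0.62), STAT3 (-0.62) and STAT5A (-1.09), and the fall was larger in LIF (-1.08). Defence genes with a smaller rise were C4A (-6.22), CXCR1 (-3.43), IL1RL1 (-1.37), IL1R1 (-0.48), ERAP1 (-0.44), TAPBP (-0.84), TAP1 (-1.14) and BCL2A1 (-2.21), where TAP1 and BCL2A1 had fold changes near 0 or below it with TGFB (-0.02 and -0.42). The value of C4A rests on 1 count in the EGF libraries and depends on the prior count. The clade B serpins SERPINB3 (1.38) and SERPINB13 (0.98) rose more with TGFB. Epithelial genes with a smaller fall were IVL (2.18), KRT81 (1.03), SPRR1B (1.22), CPA4 (1.41) and INHBA (0.97), and the basal keratin gene KRT14 (-0.73) had a smaller rise. Among protease genes MMP13 and ADAMTS1 had larger differences with TGFB, MMP13 (2.82) and ADAMTS1 (-2.48), MMP10 (2.25) had a smaller one, MMP1 changed from -3.24 to 0.40 and ADAMTS9 from 1.42 to -1.02, MMP1 (3.65) and ADAMTS9 (-2.45). Matrix, mesenchymal and contractile genes were SNAI1 (-2.17), CDH2 (-0.46), FN1 (1.41), CCN2 (0.54), COL16A1 (1.12), LAMB1 (-0.35), TAGLN (1.00), AXL (0.99), ANKRD1 (-2.86), TGFBR1 (-0.36), FAP (-0.63) and VWF (2.84), of which FN1, COL16A1 and VWF had fold changes above 0 with TGFB (0.55, 0.27 and 0.76) and below 0 without. ANKRD1 and VWF had under 40 counts in the EGF and OSM libraries together. The death genes BMF (2.28) and BCL2L11 (0.96) and the MYC antagonist MXI1 (0.88) rose more with TGFB, while MXD4 (-0.57), FOSL2 (-0.71), EGLN3 (-1.21), HMOX1 (-0.82), CTSL (-0.43) and SGK1 (-1.51) rose less, and the kinase gene MAPK4 (2.63) turned from -2.02 to 0.60.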

How the results depend on the processing

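The counts of called rows stayed within 1.5 times of their reported values under another test (DESeq2, 9129 for OSM against EGF), other scalings and filters, summed symbols and only the libraries of the contrast (8119, the lowest of these). A 2-fold limit, stricter by construction, left 2127 rows, 1356 higher and 771 lower, 2310 for the exchange with TGFB and 221 for the difference of the exchanges. Leaving out 1 library gave 8235 to 9236 rows for OSM against EGF, 3473 to 4257 higher and 4168 to 5281 lower, 8396 to 8894 with TGFB and 765 to 1265 for the difference of the exchanges. The difference in mitochondrial share ranged from -0.0216 to 0.233 percentage points, against 0.0653. The share of called rows that were higher was 49.2%, between 41.9% and 51.8% under other scalings and left-out libraries.

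With the replicate number as a block, 9417 rows were called for OSM against EGF and 9576 with TGFB, while the difference of the exchanges rose to 1809 rows. The pairing of libraries by number was weak: deviations of same-numbered OSM and EGF libraries correlated at 0.0969, 0.105 and 0.118, although each library correlated best with its own number. Of 3476 values of the 233 named genes under these alternatives, 3378 kept their direction and side of the threshold, 88 lost their call, 3 gained one and 7 turned. EGFR, at -0.00, became 0.0215 under upper-quartile scaling, 0.0065 under the stricter filter, 0.0026 in the libraries of the contrast, 0.0013 with summed symbols, and 0.025 and 0.024 without EGF replicates 2 and 3 (-0.107 to 0.025 over left-out libraries). CDKN1A became -0.0176 without OSM replicate 2 (up to 0.211 with others left out). None of these was called, and the cause was not tested. The calls of ERBB2, ERBB3, NRG2, KRT19, COL5A1, COL1A1, ANKRD1, CLDN4, CXCL10 and MMP13 were among those lost under 1 or more alternatives, where low counts or small differences limit them. Beside the list counts given with a left-out library above, leaving out 1 library moved by over 1.5 times only counts of at most 2 members in the lists the text counts, each by 1 member.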
